A study of Mus musculus with 4 samples.

Results

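V00821 and M13680 are a pair of transcripts of the mouse immunoglobulin heavy chain locus that the study's lists of long noncoding RNAs name, and each is measured by 1 probe of the array. They were chosen by these names, 2 of the 60930 probes that are not controls and 2 of the 3937 probes that the lists name in the copy analysed here. The lists hold them among the transcripts higher at 72 h than at 0 h, so the change between those times is described here and not tested. RNA came from RAW264.7 cells, a mouse macrophage line made with Abelson leukaemia virus that forms osteoclasts under RANKL, and was hybridised to 1-colour Arraystar lncRNA arrays. Cells had been induced with RANKL at 100 ng/mL and M-CSF at 50 ng/mL for 0 h (labelled monocyte), 24 h (pre-osteoclast), 72 h (mature osteoclast) or 96 h (activated osteoclast), all in the same line. The labels name no genetic change between the samples. Each time point has 1 array, so no p-value can be given and the spread between cultures is unknown. The arrays of 0 h and 72 h lie on slide 1 and those of 24 h and 96 h on slide 2.

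The immunoglobulin heavy chain locus encodes the heavy chains of antibodies. In B cells V, D and J segments are joined by recombination, and the joined exon is transcribed together with the constant region of Ighm, the mu chain of IgM. The mu chain is made in a secreted form, which ends at a proximal poly(A) site, and in a membrane form, which is spliced to exons further downstream. Unrearranged heavy chain loci can also give sterile transcripts, which encode no antibody. Antibodies are made by B cells and plasma cells, whereas macrophages and osteoclasts are of the myeloid lineage.

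On GRCm38, V00821 (uc007pgs.1) lies on the minus strand of chromosome 12 from 113418559 to 113421009, an interval of 2451 bases for a listed RNA of 473 bases. M13680 (uc007pgt.1) lies inside it, on the same strand, from 113420742 to 113420935, with a listed RNA of 194 bases. The lists class both as noncoding and intergenic. RefSeq, by contrast, places the constant region of Ighm there, from 113418826 to 113422730 on GRCm38.p6. All 194 bases of M13680 and 2184 bases of the interval of V00821 (89.1%) lie inside Ighm, and the other 267 bases of V00821 run past its downstream end. For V00821 this is a share of the interval, and the share of its listed RNA of 473 bases inside Ighm was not analysed. The interval listed for the probe of V00821, from 113418572 to 113418834, shares 9 bases with Ighm, whereas that of the M13680 probe, from 113420797 to 113420865, lies wholly within it. RefSeq's table gives no exons for Ighm, so the exon or intron of each probe was not analysed here. Which form of the mu chain either probe detects was not tested.

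**Figure D1:**
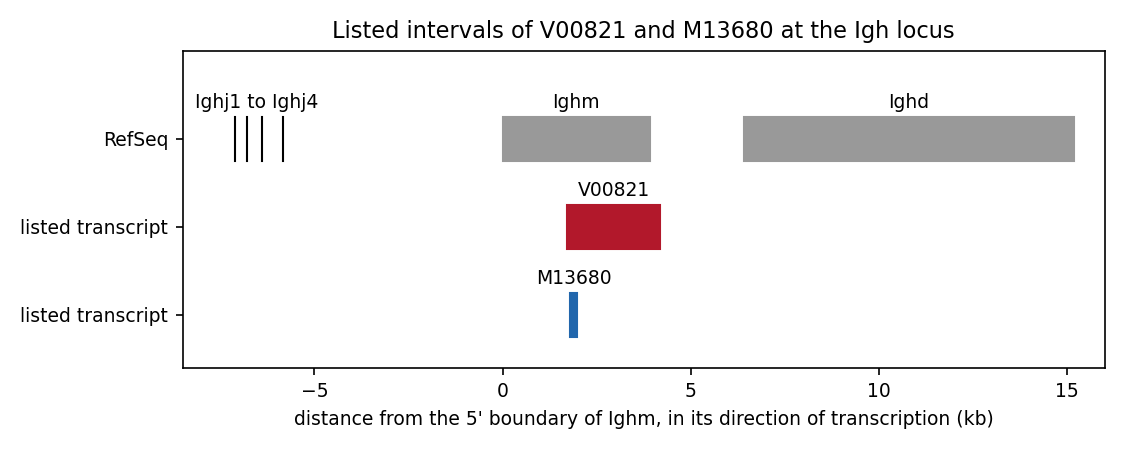
The map shows distance in kb along the direction of transcription from the upstream boundary of Ighm, with RefSeq intervals in grey (Ighm and Ighd) or as black lines (Ighj1 to Ighj4) and the listed intervals of V00821 (red) and M13680 (blue). M13680 lies within V00821, and the downstream end of V00821 extends 267 bases past Ighm.

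The probes are different sequences of 60 bases, and 30 bases of each are shown because they identify what was hybridised. The stretch of V00821 comes from its second part, bases 31 to 60 as listed, and that of M13680 from its first, bases 1 to 30. Capitals mark AATAAA, the canonical hexamer of poly(A) signals.
V00821: atggaAATAAAtactttatcttgtgaactc
M13680: ggccctgggtgtccagttgctctgtgtatg
The hexamer stands at bases 36 to 41 of the V00821 probe and was not found in the M13680 probe on either strand. Of all 3937 named probes, 411 (10.4%) hold AATAAA as listed and 13.7% hold it on either strand. The longest run that the probes of V00821 and M13680 have in common is 6 bases, on the same or on opposite strands. Their GC contents are 35% and 51.7%, against a median of 43.3% over the named probes, and the lists name no other transcript to which either could cross-hybridise.

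Both transcripts had their highest signal on the 72 h array, and V00821 its lowest at 96 h. The processed signal of V00821, an intensity after subtraction of the background, was 239 ± 24.5 before induction (0 h) and 431 ± 43.8 at 24 h, then 13281 ± 1328 at 72 h, and 45.3 ± 8.46 at 96 h. Here and below, the error is that estimated by the scanner software for the single spot, which leaves out the spread between cultures. It was 10.0% to 10.2% of the signal for every spot but that of V00821 at 96 h (18.7%). For those spots it is thus close to a fixed share of the signal and not a spread measured between repeats. For M13680 the signal was 706 ± 70.8 before induction and 1051 ± 105 at 24 h, then 18863 ± 1886 at 72 h, and 748 ± 75.2 at 96 h. In RNA of a whole culture, more cells that carry a transcript and more RNA per cell cannot be told apart.

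After quantile normalization, the log2 signals of V00821 were 8.13, 8.75, 13.64 and 4.82 on the arrays of 0, 24, 72 and 96 h. That of M13680 was 9.67, 10.05, 14.13 and 9.20 at the same times. V00821 was therefore ordered 96 h, 0 h, 24 h and 72 h from low to high, and M13680 had the same order. Before normalization, however, the processed signal of M13680 was slightly higher at 96 h (748) than at 0 h (706). The neighbours 96 h and 0 h differed by a log2 change of -0.47 ± 0.20 for M13680 and of -3.31 ± 0.31 for V00821, both as 96 h minus 0 h. Between 0 h and 24 h, V00821 differed by 0.63 ± 0.21 and M13680 by 0.38 ± 0.20, steps at which neither passed 2-fold. Neither transcript was without signal at the start, since every one of the 8 spots was well above background by the flag of the software, and none was saturated or marked as an outlier. The spot of V00821 at 96 h was the dimmest of them, at 4.88 times its local background, and lay 0.41 above the lowest log2 signal called well above background on that array.

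**Figure D2:**
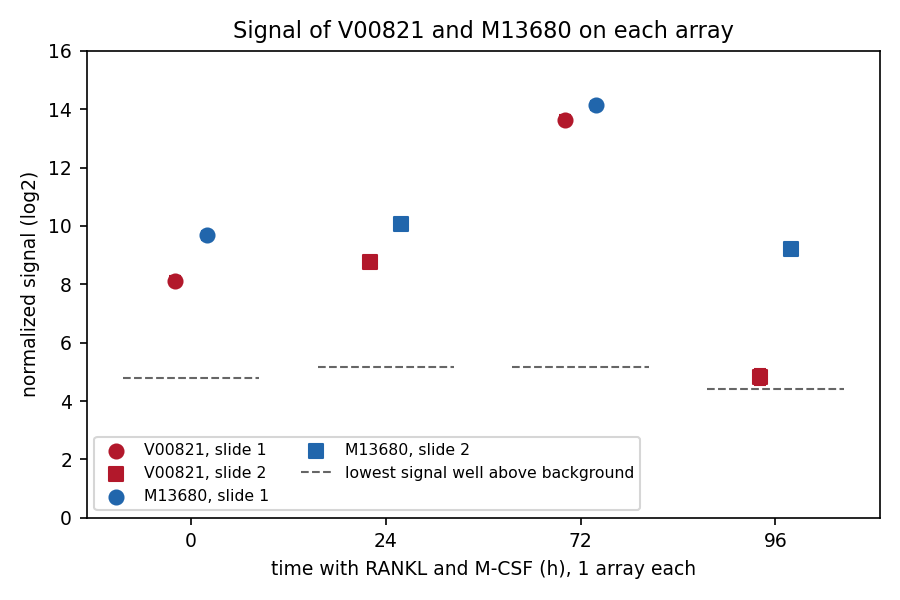
The normalized log2 signal of V00821 (red) and M13680 (blue) is plotted for each array, with circles for slide 1 and squares for slide 2. Error bars are the scanner software's estimate for the spot, and most are hidden by the symbols, while dashed lines give the lowest signal well above background on each array. Both transcripts peak at 72 h, and V00821 falls close to the dashed line at 96 h.

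The spots around the members were dim on every array going by their medians, but not all of them were dim. V00821 is printed in row 308 and M13680 in row 69 of the same array layout, 1 spot each. At 72 h the median pixel signal was 13330 against a local background of 30 for V00821, and 18778 against 33 for M13680. The 24 spots within 2 places of V00821 had a median signal of 88.5 at 72 h and 109.5 at 0 h, and those around M13680 had 61 and 65. The brightest of them reached 79684 at 72 h and 52996.5 at 0 h around V00821, and 7724.5 and 6725.5 around M13680. Local backgrounds among these neighbours at 72 h ran from 30 to 32 and from 32 to 36. On the array of 72 h alone the software applied no multiplicative detrending, a correction that changed the signals of the members on the other arrays by factors between 0.954 and 1.03.

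Against the 0 h array, V00821 was 45.6-fold higher at 72 h, a log2 change of 5.51 ± 0.21. M13680 was 21.9-fold higher, with 4.46 ± 0.20. Both are thus past 2-fold, as were 4.33% of the 39609 probes that were well above background on 1 or both arrays, while 5.28% were at least 2-fold lower. Since this contrast chose the members, nothing is read from that count. In the order of all these changes V00821 took place 5 from the top and M13680 place 18, and in the 7 alternatives these places ran from 3 to 13 and from 9 to 38. The arrays of this pair share slide 1.

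At 24 h neither transcript was past 2-fold against 0 h, where 3.39% of 39355 probes were higher and 6.1% lower. V00821 was 1.54-fold and M13680 1.30-fold higher, and changes as large as theirs or larger were common, with 4016 probes above V00821 and 9694 above M13680. In the alternatives V00821 took places from 3784 to 7198 from the top and M13680 from 4688 to 14013. The median change of all probes in this pair was 0.10 on the log2 scale.

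At 96 h the transcripts parted. V00821 was 9.91-fold lower than at 0 h, with a log2 change of -3.31 ± 0.31, and was 1 of the 8.41% of 42005 probes at least 2-fold lower, beside 5.7% at least 2-fold higher. It took place 157 from the bottom, and places from 161 to 665 in the 7 alternatives of processing, the last with normexp correction. M13680 had a log2 change of -0.47 ± 0.20 and stayed within 2-fold of 0 h. Computed without subtraction of the background, the change of V00821 was -1.90, and with normexp correction it was -1.73. The pair of 0 h and 96 h crosses slides, so an effect of the slide cannot be told apart from one of time.

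**Figure D3:**
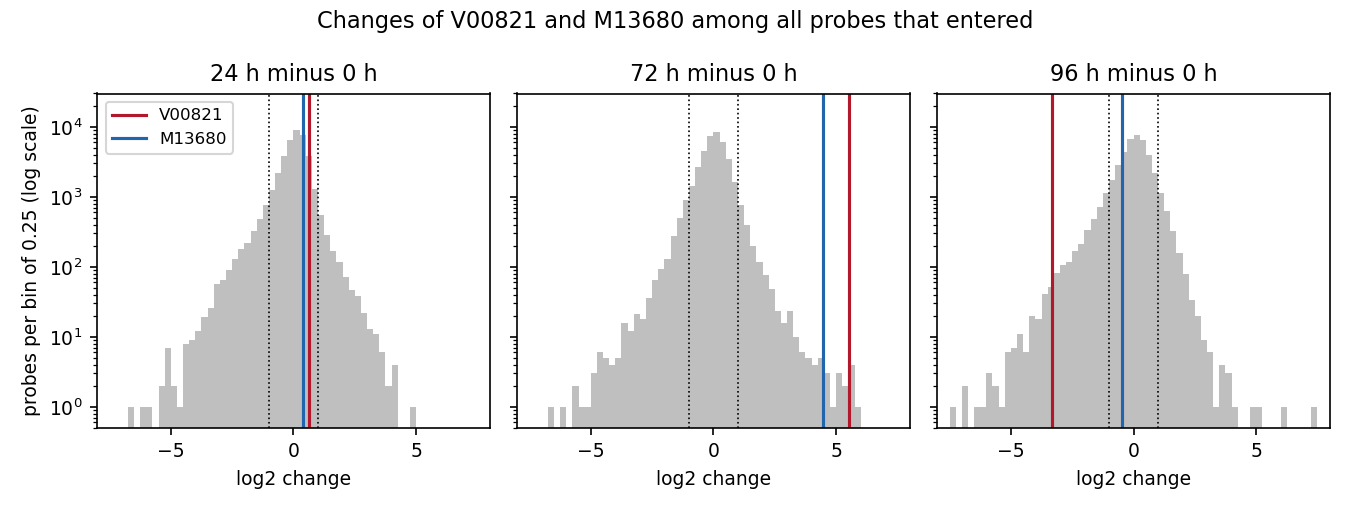
Grey bars count the probes in each step of log2 change against 0 h, on a log axis, at 24, 72 and 96 h, with dotted lines at 2-fold and coloured lines at V00821 (red) and M13680 (blue). The members lie among most other probes at 24 h and at the upper edge at 72 h, and at 96 h V00821 alone lies past 2-fold, on the lower side.

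From 72 h to 96 h, V00821 had the largest fall of all 42014 probes compared, with a log2 change of -8.82 ± 0.31, which is 452-fold. It kept this place in each of the 7 alternatives of processing, with changes between -8.82 and -6.85. M13680 was 30.4-fold lower at 96 h, a change of -4.93 ± 0.20, and took place 34 from the bottom (19 to 52 in the alternatives). In this pair 12.9% of probes were at least 2-fold lower. The 72 h array also enters the contrast that chose the members, so these falls are a description as well. This pair crosses slides too, and the spot of V00821 at 96 h lay 0.41 above the lowest signal called well above background.

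Compared with 24 h, V00821 at 72 h was 29.6-fold higher (4.89 ± 0.21 on the log2 scale) and M13680 16.8-fold higher (4.07 ± 0.20), where 8.28% of 38991 probes were at least 2-fold higher and 8.18% lower. These values share the 72 h array with the choice of members, and their arrays lie on different slides. The pair of 24 h and 96 h lies on slide 2 and enters no list that names the members in the copy analysed here, but the members were picked with their values at all 4 times known, so it is a description too. There V00821 was 15.3-fold lower at 96 h, with a log2 change of -3.93 ± 0.31 and place 46 from the bottom of 41467 probes (49 to 133 in the alternatives), of which 6.49% were at least 2-fold lower and 5.32% higher. M13680 was 1.81-fold lower, with -0.85 ± 0.20, and did not pass 2-fold. In the alternatives V00821 lay between -3.93 and -2.20 in this pair, and M13680 between -0.90 and -0.75.

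The nested transcripts therefore did not change by equal amounts. The log2 change of V00821 exceeded that of M13680 by 0.24 ± 0.29 at 24 h, within the error of the spots, and by 1.06 ± 0.29 at 72 h, both against 0 h. At 96 h the difference was -2.84 ± 0.37, with V00821 lower. Across the alternatives it lay between -2.84 and -1.31 at 96 h and between 0.77 and 1.18 at 72 h. For scale, probes printed repeatedly and well above background, 15 or 16 per array, had a median SD between spots of 0.05 to 0.07 on the log2 scale within an array. For repeated probes not well above background it was 0.06, 0.04, 0 and 0.20 at 0, 24, 72 and 96 h. A median of 0 stands for equal processed signals in repeated spots, so these values give no scale for the spread near background. The spot of V00821 at 96 h lay only 0.41 above the lowest signal called well above background. The spread of the difference between V00821 and M13680 across cultures was not measured.

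The members were listed as higher at 72 h, so their height above the other arrays partly restates that choice and is given as a description. Of the 43190 probes with a signal well above background on any array, 16 (0.037%) were 16-fold or more above each of the other arrays at 72 h, among them V00821 in place 7 and M13680, just inside the limit, in place 16. With the same limit such probes numbered 10 on the array of 0 h, 3 on that of 24 h and 4 on that of 96 h. With 2-fold as the limit they were 324, 427, 703 and 947 at 0, 24, 72 and 96 h. V00821 was 29.6-fold and M13680 16.8-fold above its next highest array, which was that of 24 h in each case.

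The named probes most like V00821 were found by the Euclidean distance between log2 values of the 4 arrays, each probe centred on its own mean, among 3926 candidates. The candidates come from the paper's lists of transcripts changed on these same arrays, so likeness to the members is partly set by that choice. Of probes 4-fold or more above every other array, 63 of 117 are named for 72 h. The named ones were 53 of 91 for 24 h, 27 of 58 for 96 h and 0 of 98 for 0 h. The nearest was the transcript ENSMUST00000150264 of Cp, the gene of ceruloplasmin, a copper-binding ferroxidase of plasma, at a distance of 1.94. Its log2 signals were 5.61, 6.28 and 10.78 at 0, 24 and 72 h, and at 96 h it was not well above background. Gm17757 (distance 2.40) and AK046587 (2.84) followed, which lie near each other on chromosome 7, then Gm15340 (2.88), also not well above background at 96 h, and AK089350 (2.93). Without Cp and Gm15340, that is among probes well above background at every time, a restriction chosen after these values were seen, Gm17757 was nearest. Among all candidates, M13680 itself lay 2.94 from V00821, behind the 5 probes named first. All 5 were highest at 72 h and lowest at 96 h, though AK089350 was nearly as low at 24 h, with log2 signals of 5.67 at 24 h and 5.43 at 96 h. Seen from M13680, by contrast, 605 of the 3926 candidates lay closer to it than V00821 did.

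**Figure D4:**
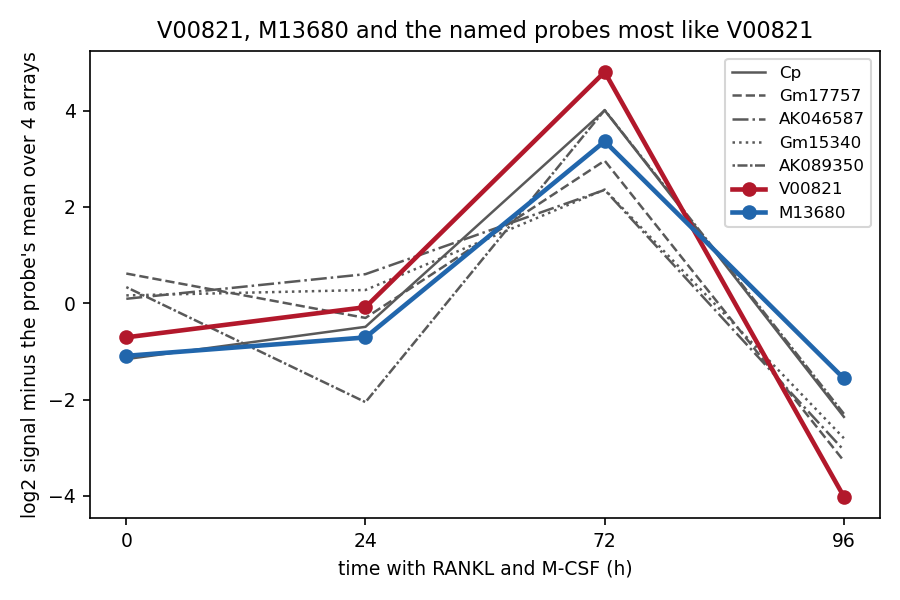
Lines join the log2 signals of the 4 arrays after each probe's own mean was subtracted, for V00821 (red), M13680 (blue) and the 5 named probes nearest to V00821 (grey), with values not well above background raised to the lowest signal well above it. The probes are highest at 72 h, and M13680 falls least at 96 h.

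The 5 named probes nearest to M13680, among them humanlincRNA1857 and AK083073 at distances of 0.07 and 0.09, were well above background at 72 h only. Their other values stand at the lower limit of the arrays, so their likeness to M13680 is partly set by that limit. With the same restriction to probes well above background at every time, the transcript of Dhrs3, a retinal reductase gene, was nearest to M13680 at 0.94, with log2 signals of 6.18, 6.22, 9.47 and 5.69. AK009210 (1.13) and A130023I24Rik (1.23) came next. With 4 arrays no correlation is given, and nothing follows from likeness about shared control.

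Elsewhere on chromosome 12 the lists name 2 other probes within 1 Mb, and neither had a peak at 72 h. AK020328, 267 kb from the members, was not well above background at 0 h and 72 h and had log2 signals of 6.09 at 24 h and 6.01 at 96 h. AK052955, 587 kb away, had 6.12, 7.05, 7.15 and 7.33 from 0 h to 96 h. No gene symbol of an immunoglobulin heavy, kappa or lambda chain occurs in the lists analysed here, and the files do not pair the probes of mRNAs with genes, so the mRNAs of Ighm, of the light chains and of B cell genes were not analysed here.

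Noncoding transcripts give a partial view of cell type. Of 15 B cell and immunoglobulin genes on a fixed list, 1 has such a probe among those named in the paper's lncRNA lists. The same holds for 1 of 11 osteoclast, 1 of 7 macrophage and 0 of 4 T cell genes. Probes of the array that these lists do not name were not searched. The transcript at Pax5, which encodes a transcription factor of B cells, was not well above background at 0, 24 and 72 h and had a log2 signal of 4.98 at 96 h. That value is below the lowest signal called well above background at 24 h (5.17) and 72 h (5.16), a limit that was 4.41 at 96 h. With the 0 h value raised to its limit of 4.81, the log2 change from 0 h to 96 h was 0.17. At Mmp9, a matrix protease gene of osteoclasts, the transcript had 8.90, 7.42, 6.35 and 8.06 and was thus lowest where V00821 and M13680 were highest. At Irf8, which encodes a factor of macrophages that restrains osteoclast formation, it had 9.18, 9.53, 11.05 and 9.27, highest at 72 h. These probes overlap exons of the genes in sense and are listed as noncoding, so they do not show the level of the mRNAs. The part of B cell RNA, or of a change of cell type, in the signals of V00821 and M13680 was not tested.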

How the data were processed

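RNA of RAW264.7 cells at 4 time points was measured on 4 arrays, 1 for each. Spot values were extracted by the authors with Agilent Feature Extraction (11.0.1.1 per the file headers). The deposited intensity columns used here are the processed signal, its error, the median signal and the median local background. The authors also deposited log2 values, quantile normalized in GeneSpring. From the spots, controls and marked outliers were left out, log2 processed signals were averaged per probe and the arrays were quantile normalized. These values differed from the deposited log2 values by at most 0.03, and for the members by at most 0.0005. A probe entered a comparison when well above background on 1 or both arrays, and a value not well above background was raised to the lowest normalized signal that was (log2 4.81 at 0 h, 5.17 at 24 h, 5.16 at 72 h, 4.41 at 96 h). Changes are differences of log2 values, without a test.

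Between 58.8% and 66.8% of probes were well above background per array. Signal over background takes the place of depth. Errors of changes combine the relative spot errors of both arrays.

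Names, intervals and probe sequences come from the paper's lncRNA lists, analysed in part. Their build was checked against RefSeq (GRCm38.p6), where 1579 of 1596 entries of the same symbol and chromosome (98.9%) overlapped. Starts of UCSC transcripts count from 0 in the lists (the listed length equals end minus start for 174 of 490 entries and is 1 more for 0) and were raised by 1. Probe intervals are as listed. The rule for named probes took the members, named probes within 1 Mb on chromosome 12, and the 5 most like each member. Members, lists and rules were chosen with earlier results of these data known. Alternatives were scaling to the 75th percentile, cyclic loess, the authors' log2 values, median signals without subtraction, no filter and floor, outliers kept, other fold limits and, chosen after seeing the data, normexp (offset 50) on the median signal, since the planned mean signal is not used here. The functions were tested on simulated data. Python 3.11.15, numpy 2.4.6, pandas 2.3.3, scipy 1.17.1, matplotlib 3.10.9, R 4.3.3 and limma 3.58.1 were used.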

Additional observations from a re-analysis of the deposited data

Results flagged for a closer look

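V00821 changed in opposite directions at different time points: its log2 change against 0 h was 5.51 at 72 h and -3.31 at 96 h. The difference between these changes was not tested, for want of replicates, and both share the 0 h array.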

How the results depend on the processing

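The direction of each change of V00821 and M13680 against 0 h, and of 96 h against 24 h and 72 h, was the same in all 7 alternatives run, and no change crossed 2-fold. For the members, dropping the filter and floor or keeping outliers left the values as they were. The authors' values differed by at most 0.0005, so these alternatives could not alter a direction. Each alternative normalizes the arrays, whereas the processed signal of M13680 before that was 706 at 0 h and 748 at 96 h. A value is called moved where it shifted by more than the error of its spots. Scaling to the 75th percentile gave 5.74 for V00821 and 4.69 for M13680 at 72 h against 0 h and -5.21 for M13680 at 96 h against 72 h. Cyclic loess gave -3.59 for V00821 at 96 h against 24 h. The median signal without subtraction gave V00821 5.21 at 72 h and -1.90 at 96 h against 0 h, and -2.40 and -7.10 at 96 h against 24 h and 72 h. Normexp gave 5.12, -1.73, -2.20 and -6.85 for the same pairs. Changes at 24 h against 0 h moved by less than the error.

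The numbers of probes at least 2-fold higher than at 0 h, which serve as background, were 1334, 1717 and 2393 at 24, 72 and 96 h. They were 566, 815 and 1152 without subtraction, 447, 738 and 1007 with normexp, and 3402, 4199 and 4624 without filter and floor. At 1.5-fold they were 4680, 5333 and 6939 and at 4-fold 217, 231 and 161, and at 24 h 759 with probes well above background on both arrays. Higher probes were 45.1% of the changed probes at 72 h and 33.3% after 75th percentile scaling. At 24 h they were 35.7%, but 23.5% without subtraction and 21.0% with normexp. The alternatives for 96 h against 24 h and 72 h, and normexp, were chosen after seeing the data. No paired analysis was possible because each time point has 1 array.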
